A study of Mus musculus with 15 samples.

Results

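Of the 70 mouse genes whose current symbol begins with H1f, H2ac, H2bc, H3c or H4c and a number, 39 had a probe set on the arrays and 31 did not. These are the genes of the linker histone H1 and of the core histones H2A, H2B, H3 and H4, long known by names beginning with Hist1 or Hist2. The members were chosen by symbol alone, out of 25206 probe sets measured. By class, 9 of 11 H1 genes, 9 of 19 H2A genes, 11 of 16 H2B genes, 7 of 12 H3 genes and 3 of 12 H4 genes were measured. The larger histone gene cluster held 29 of the measured genes and the smaller one 6. The other 4, H1f0, H1f7, H1f8 and H1f10, lie outside both clusters, so the name clustered histone genes does not cover them.

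A nucleosome is a spool of H2A, H2B, H3 and H4 around which DNA is wound, and H1 binds the DNA where it enters and leaves the spool. Most clustered histone genes lack introns and are transcribed mainly in S phase, when new DNA needs packaging, and their mRNAs end in a stem-loop bound by SLBP in place of a poly(A) tail. Cells that have left the cell cycle rely more on replacement histones such as H1f0, H3.3 and H2A.Z, whose genes are transcribed outside S phase. Mature adipocytes are generally taken to be such non-dividing cells.

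The arrays measured RNA of adipocytes sorted by flow cytometry from UCP1/Tomato mice aged 8 to 10 weeks, as log2 expression values. Untreated mice gave 2 of the groups: WAT, 4 arrays of white inguinal adipocytes sorted as UCP1-negative, and BAT, 3 arrays of adipocytes of brown fat sorted as UCP1-positive. Inguinal fat of treated mice, sorted as UCP1-positive, gave the others: CL, 3 arrays after CL316243, an agonist of the β3-adrenergic receptor; RS, 2 arrays after roscovitine, an inhibitor of cyclin-dependent kinases; and RG, 3 arrays after rosiglitazone, an agonist of the nuclear receptor PPARγ. The labels call the sorting marker UCP1(GFP), and which reporter was sorted is not given in the sources used here. No array holds UCP1-positive inguinal cells of untreated mice, so drug and gate cannot be told apart in any comparison of CL, RS or RG with WAT. The labels give no dose, treatment time, sex or array batch and do not say that arrays came from separate animals, so the spread behind each p-value may be technical.

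Array medians lay between 3.33 and 3.47, but the 10th percentile was 1.51 to 1.68 on the WAT arrays, 2.11 to 2.15 on the BAT arrays, 1.97 to 2.03 on CL, 1.97 to 2.02 on RS and 1.81 to 1.87 on RG. Dim probe sets therefore read lower on the WAT arrays as a whole. All 7 thermogenic marker genes were higher in BAT and in CL than in WAT, and 6 of 7 in RS and in RG. All 11 macrophage marker genes measured were lower in each of the other groups than in WAT. Their mean log2 value, relative to all arrays, was 1.45 to 2.58 on the WAT arrays and between -1.44 and 0.08 on all others. Of 8 stromal and preadipocyte markers, 8 were lower in BAT, 4 in CL, 7 in RS and 3 in RG. These markers moved with every comparison against WAT below, and their part in the histone results was not tested. WAT 4 had the lowest mean of the 10 mature adipocyte markers (-1.55) and RS 3 the lowest mean of the 8 endothelial markers (-2.27).

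Promoter sequences are shown for the members on which the results turn, since histone classes differ in the motifs before their start sites. RefSeq (GRCm38.p6) gave a window of 250 bases before to 50 bases after the start for 35 of the 39 measured genes. Each line below gives 150 bases before the start, read 5′ to 3′ on the gene's own strand. Capitals mark motifs found on either strand. TATAAA was searched as the TATA box. The CCAAT box was searched by those letters, and its reverse reads ATTGG. For the AC box of H1 genes the letters AAACACA were searched, and GGTCCG was searched as the core of the site of HINFP, a zinc finger factor of H4 genes. No motif searched overlaps another by its letters in the stretches shown. The positions are chr13:21750554-21750703 on the minus strand for H4c12, chr13:22041363-22041512 on the minus strand for H4c9, chr13:23530894-23531043 on the plus strand for H4c8, chr13:23622559-23622708 on the minus strand for H1f4, chr13:21753926-21754075 on the plus strand for H2bc15, chr13:23574208-23574357 on the minus strand for H2bc7 and chr15:79028062-79028211 on the plus strand for H1f0.
H4c12: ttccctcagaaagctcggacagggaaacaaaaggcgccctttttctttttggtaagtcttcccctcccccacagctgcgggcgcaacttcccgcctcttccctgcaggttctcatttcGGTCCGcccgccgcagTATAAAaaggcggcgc
H4c9: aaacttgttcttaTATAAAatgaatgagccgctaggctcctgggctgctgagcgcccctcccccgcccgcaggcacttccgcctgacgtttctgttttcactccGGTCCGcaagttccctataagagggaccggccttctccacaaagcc
H4c8: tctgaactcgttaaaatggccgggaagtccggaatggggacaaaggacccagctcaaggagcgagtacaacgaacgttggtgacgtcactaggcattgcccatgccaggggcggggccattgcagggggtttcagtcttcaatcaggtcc
H1f4: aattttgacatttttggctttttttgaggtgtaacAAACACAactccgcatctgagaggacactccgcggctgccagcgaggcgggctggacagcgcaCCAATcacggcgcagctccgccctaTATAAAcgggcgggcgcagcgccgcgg
H2bc15: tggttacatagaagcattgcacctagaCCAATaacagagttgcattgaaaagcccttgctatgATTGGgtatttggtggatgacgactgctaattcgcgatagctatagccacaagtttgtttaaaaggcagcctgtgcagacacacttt
H2bc7: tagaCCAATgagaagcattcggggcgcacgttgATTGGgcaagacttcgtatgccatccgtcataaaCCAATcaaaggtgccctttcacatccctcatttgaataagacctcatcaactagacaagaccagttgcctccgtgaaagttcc
H1f0: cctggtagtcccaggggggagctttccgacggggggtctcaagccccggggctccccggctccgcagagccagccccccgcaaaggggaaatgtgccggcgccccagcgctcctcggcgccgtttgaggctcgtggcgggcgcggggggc

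Over the whole window, a TATA box was found in 20 of 35 members (57.1%) against 14.2% of 27025 promoters, and a CCAAT box in 29 of 35 (82.9%) against 37.9%. The octamer ATTTGCAT, a motif of H2B promoters, was found in 9 of 35 members (25.7%), 5 of them H2A and 4 H2B genes, against 1.75% of all promoters. GGTCCG was found in 5 of 35 (14.3%) against 8.39%, among them all 3 H4 genes, although the copy of H4c8 does not lie wholly in the stretch shown. AAACACA was found in 7 of 35 against 7.14%, and 4 of these were H1 genes. H1f0 held none of the motifs. A match describes the letters in a window and is no evidence of binding.

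In the brown adipocytes, 13 of the 39 histone genes were higher than in WAT and 0 were lower at an adjusted p under 0.05 (limma, Benjamini-Hochberg adjustment over all probe sets). Of all probe sets, 27.6% were higher and 16.4% lower, so the share of members called higher (33.3%) was near the background. The median difference was 0.52 on the log2 scale for the members and 0.18 for all probe sets. In CL, 12 of 39 (30.8%) were higher and 0 lower, against 15.2% and 9.97% of all probe sets, with medians of 0.56 and 0.13. Without CL 3, the count in CL was 6, of which H2ac20 was lower (-1.92, adjusted p = 0.0201). In that fit, 12.0% of all probe sets were higher and 8.41% lower. In RS, 5 of 39 were higher and 0 lower, against 11.1% and 10.3%, with medians of 0.15 and 0.13. Without RS 4 the count in RS was 1, and without WAT 3 it was 8. Leaving out either RS array leaves that group with 1 array, which is then assumed to vary like the other groups. In RG, 3 of 39 were higher and 0 lower, against 5.19% and 6.24%, with medians of 0.24 and 0.10. The count in RG was 5 without WAT 3 and 6 without BAT 4. Without WAT 3, 8.49% of all probe sets were higher in RS and 4.42% in RG. Without BAT 4, 5.63% were higher in RG. At an unadjusted p under 0.05, 0 members were lower in BAT, 2 in CL, 1 in RS and 0 in RG, both in this fit and in limma-trend. Shares of all probe sets at an unadjusted threshold were not counted, here or below. The unadjusted counts are therefore not read as results about the members.

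The counts were also set beside the level, since dim probe sets read lower on the WAT arrays. The median of the probe sets' means was 3.38, and 19 of the 39 members lay above it. Among those 19 members, 5 were higher in BAT (26.3%), where 12.5% of the 12601 probe sets above the median were higher and 30.5% lower. In CL, 6 of the 19 were higher (31.6%), against 8.48% of these probe sets higher and 18.0% lower. The median difference of the 19 was 0.50 in BAT and 0.56 in CL, where these probe sets had medians of -0.20 and -0.11. In RS, 1 of the 19 was higher (5.26%), against 4.42% of these probe sets higher and 19.0% lower, and in RG 2 were (10.5%), against 6.19% and 11.0%. Among the 20 members at or under the median level, 8 were higher in BAT (40.0%), as were 42.6% of probe sets at that level. The dim members thus moved about as often as dim probe sets in general in BAT. In CL, 6 of the 20 were higher, against 22.0% of probe sets at that level. In RS, 4 were, against 17.7%, and in RG 1 was, against 4.19%.

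**Figure D1:**
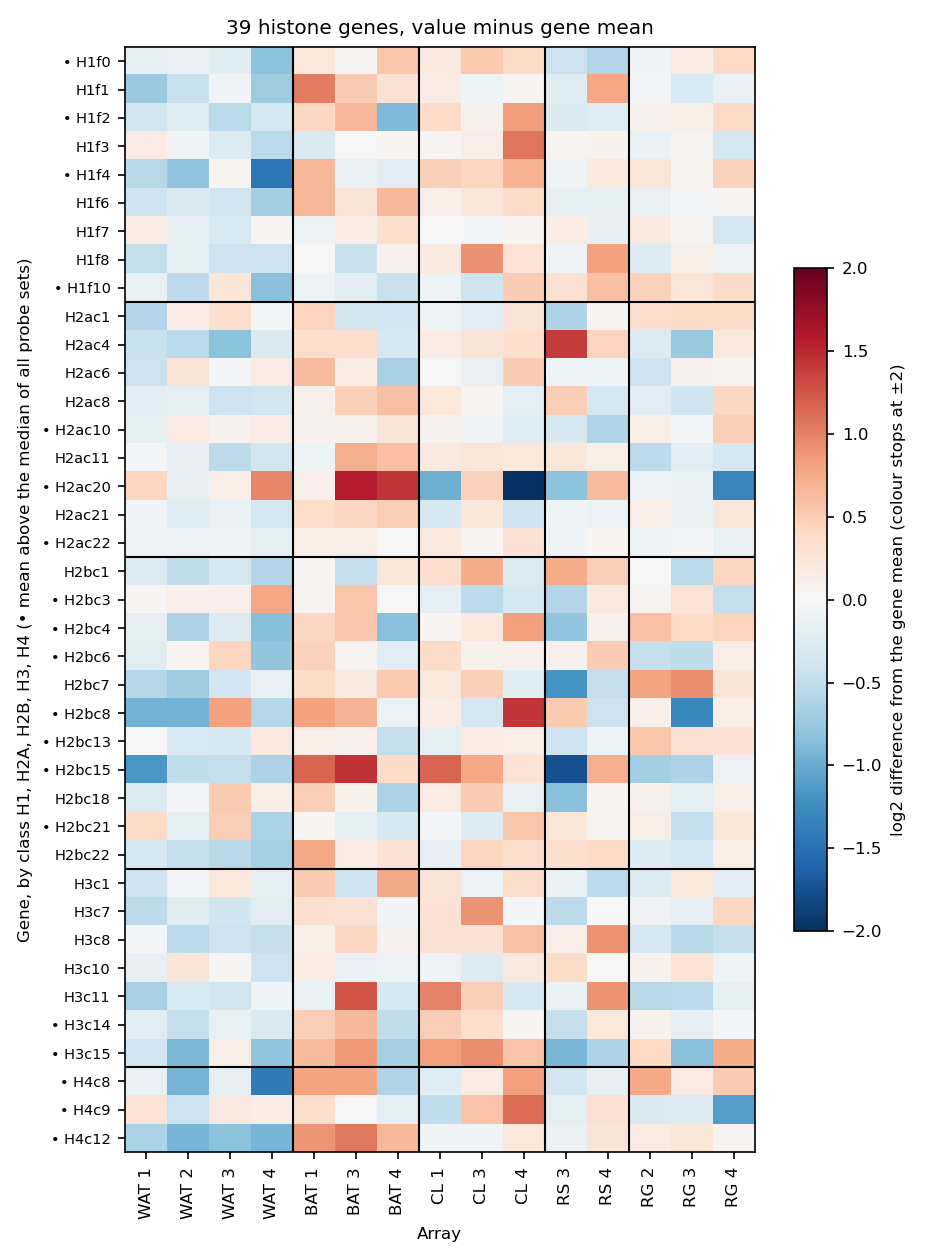
Log2 expression value of each of the 39 histone genes (rows, grouped by class H1, H2A, H2B, H3, H4) on each of the 15 arrays (columns, grouped by WAT, BAT, CL, RS, RG), minus the gene's mean over all arrays, with colours that stop at 2 log2 units. Dots mark the 19 genes above the median level, and the WAT columns are the lowest group for 22 of the 39 genes, against 40.6% of all probe sets.

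WAT was the group with the lowest mean for 22 of the 39 members and the group with the highest mean for 1, H2bc3. For all probe sets those shares were 40.6% and 21.9%. CL was the highest group for 13 members, against 15% of all probe sets, and BAT for 12, against 28.7%. The mean exceeded that of WAT in all 4 other groups for 22 members. In all, 19 of 39 were called in at least 1 of the 10 comparisons made and 20 in none. The share of all probe sets called in at least 1 of the 10 was not counted. In BAT against WAT alone, 27.6% of all probe sets were higher and 16.4% lower. The count of 19 is therefore not read as a result about the members.

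Histone H4 forms the core tetramer with H3, and H4c12 was the 1 member called higher than WAT in all 4 other groups. H4c12 read 6.31, 6.01, 6.12 and 6.01 on the WAT arrays. On the BAT arrays it read 7.82, 7.99 and 7.60, on CL 6.89, 6.89 and 7.15, on RS 6.80 and 7.20, and on RG 7.11, 7.18 and 7.0. Every array of the UCP1-positive groups was above every WAT array, and the BAT arrays were above all the others. H4c12 was 3.23-fold higher in BAT than in WAT (log2 difference 1.69, SE 0.155, limma adjusted p = 6.32e-06). The log2 difference was 0.86 in CL (adjusted p = 0.00175), 0.89 in RS (adjusted p = 0.00422) and 0.98 in RG (adjusted p = 0.00161), each with SE 0.155 to 0.175. In BAT, CL and RG it passed the threshold under all 22 alternative settings. In RS it passed under 21 of 22, with adjusted p = 0.0507 without RS 4. H4c12 was lower than in BAT by 0.83 in CL (fell by 0.83, adjusted p = 0.0237), by 0.80 in RS (fell by 0.80, adjusted p = 0.0293) and by 0.71 in RG (fell by 0.71, adjusted p = 0.0134). These held under 16, 16 and 21 of the 22 alternatives.

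The other H4 genes did not share this pattern. H4c8 read 4.68, 3.88, 4.64 and 3.41 on the WAT arrays, 5.59, 5.60 and 4.20 on BAT, 4.57, 4.96 and 5.63 on CL, 4.44 and 4.64 on RS, and 5.57, 4.97 and 5.32 on RG. BAT 4 fell within the range of the WAT arrays, and only the RG arrays cleared it. The log2 difference was 0.98 in BAT (SE 0.368, adjusted p = 0.0423) and held under 12 of 22 alternatives. It was 1.13 in RG (adjusted p = 0.0578), 0.90 in CL (adjusted p = 0.0831) and 0.39 in RS (adjusted p = 0.512). H4c9 averaged 3.79 ± 0.32 (SD, n = 4) in WAT and 3.79 ± 0.27 (SD, n = 3) in BAT, and its difference was 0.36 in CL, 0.02 in RS and -0.59 in RG, none past the threshold. All H4 genes encode nearly the same protein and their coding sequences are alike, so probes may read RNA of more than 1 H4 gene. The labels do not give the probe sequences, and this was not tested. The H2A, H2B and H3 genes below also have near-identical relatives in their class. The same limit holds for their values, which may not belong to the named gene alone.

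**Figure D2:**
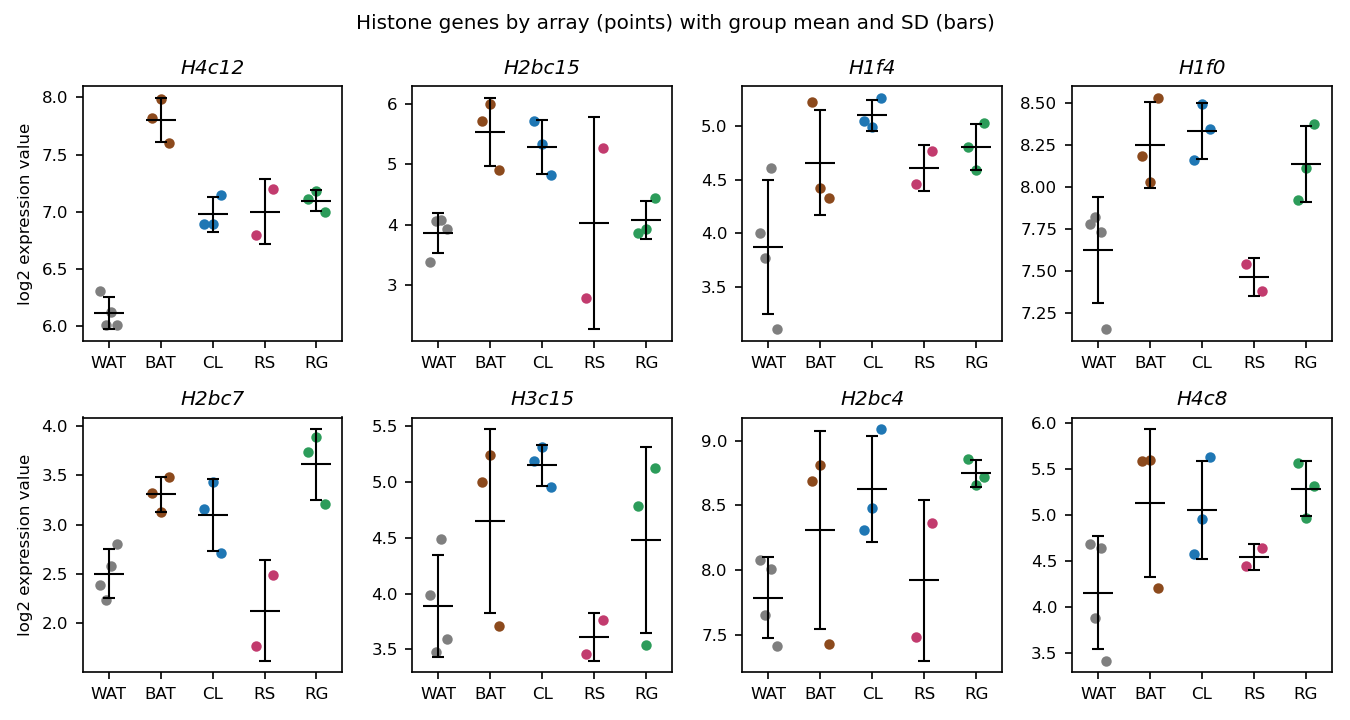
Log2 expression value of 8 histone genes on each array (points), by group on the x axis, with the group mean and SD as bars (n = 4 WAT, 3 BAT, 3 CL, 2 RS, 3 RG). The y axes differ between genes. H4c12 lies above every WAT array on all 11 arrays of the other groups, and the H2bc15 values of the RS arrays lie at 2.79 and 5.27.

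Of the 7 H3 genes measured, 1 was higher in BAT, 3 in CL, 1 in RS and 0 in RG. The shares of all probe sets higher were 27.6%, 15.2%, 11.1% and 5.19%, and the class itself was not tested. H3c15, a gene of the smaller cluster, read 3.99, 3.48, 4.49 and 3.59 on the WAT arrays and 5.19, 5.31 and 4.95 on the CL arrays. The CL arrays were all above the WAT arrays, by a mean of 1.26 on the log2 scale (SE 0.381, 2.40-fold, adjusted p = 0.0263), and the call held under 15 of 22 alternatives. On the BAT arrays it read 5.0, 5.24 and 3.71, on RG 4.78, 3.54 and 5.12, and on RS 3.46 and 3.76. BAT and RG thus each held an array within the WAT range, and both RS arrays did not exceed it. H3c14 read 4.69 to 5.02 in WAT, 4.68 to 5.81 in BAT, 5.19 to 5.66 in CL, 4.70 and 5.38 in RS, and 5.01 to 5.24 in RG. Its differences were 0.50 in BAT (adjusted p = 0.106) and 0.56 in CL (adjusted p = 0.0976). Both passed after quantile normalization (0.83, adjusted p = 0.0207, and 0.79, adjusted p = 0.0437).

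H3c8 was dim, at 1.04 to 1.54 in WAT, 1.65 to 1.98 in BAT, 1.85 to 2.15 in CL, 1.68 and 2.46 in RS, and 1.01 to 1.25 in RG. The RG arrays overlapped WAT and all others lay above it. It was higher by 0.56 in BAT (adjusted p = 0.0267), 0.74 in CL (adjusted p = 0.0123) and 0.86 in RS (adjusted p = 0.0136). After quantile normalization these differences were 0.05, 0.36 and 0.49, with adjusted p-values of 0.876, 0.242 and 0.159. H3c8 was also the member that differed between CL and RG, where it was higher in CL by 0.83 (SE 0.204, adjusted p = 0.0426).

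H2A and H2B pair as dimers in the nucleosome core. Of 9 H2A genes, 3 were higher in BAT, 1 in CL, 1 in RS and 0 in RG, near or under the shares of all probe sets given above. All the H2A genes called were dim. H2ac4 read 1.12, 1.03, 0.75 and 1.28 on the WAT arrays, 2.97 and 2.01 on the RS arrays, and 1.71, 1.82 and 1.90 on the CL arrays. Both RS arrays and all CL arrays were above WAT. The difference was 1.45 in RS (SE 0.289, 2.72-fold, adjusted p = 0.00451) and 0.77 in CL (adjusted p = 0.0398). Its mean lay at the 2.94th percentile of probe sets, and the call in RS was lost without RS 3 (adjusted p up to 0.0629 over the alternatives), while the call in CL held under 11 of 21 alternatives, was lost without any 1 of the CL arrays, and had adjusted p = 0.389 after quantile normalization. H2ac8, H2ac11 and H2ac21 were higher in BAT by 0.69 (adjusted p = 0.0218), 0.68 (adjusted p = 0.00975) and 0.61 (adjusted p = 0.00831). After quantile normalization their differences were 0.17, 0.19 and 0.13, with adjusted p-values of 0.617, 0.524 and 0.614.

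The H2A genes with the highest levels differed little between groups in the deposited values. H2ac22 read 6.01 to 6.11 in WAT, 6.17 to 6.31 in BAT, 6.21 to 6.47 in CL, 6.13 and 6.22 in RS, and 6.04 to 6.14 in RG. The BAT, CL and RS arrays lay above the WAT arrays, but by only 0.19 (adjusted p = 0.215), 0.29 (adjusted p = 0.101) and 0.11 (adjusted p = 0.590). Quantile normalization gave 0.53 in BAT (adjusted p = 0.00897) and 0.51 in CL (adjusted p = 0.0208). H2ac10 read 5.09 to 5.45 in WAT and 4.96 and 4.69 in RS, a difference of -0.51 (adjusted p = 0.0600). It was called lower in RS with arrays centred on their medians (-0.58, adjusted p = 0.0423) and without WAT 1 (-0.59, adjusted p = 0.0450). H2ac20, of the smaller cluster, ranged from 1.96 to 4.59 on the CL arrays and from 3.97 to 5.11 on the WAT arrays, a difference of -1.24 with SE 0.545 that did not pass (adjusted p = 0.104).

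Of 11 H2B genes, 3 were higher in BAT, 2 in CL, 2 in RS and 1 in RG. Of all probe sets, 27.6%, 15.2%, 11.1% and 5.19% were higher there, and the class itself was not tested. H2bc15 lies near H4c12 in the larger cluster. It read 3.39, 4.06, 4.08 and 3.93 on the WAT arrays, 5.72, 5.99 and 4.91 on BAT, 5.71, 5.33 and 4.83 on CL, 2.79 and 5.27 on RS, and 3.87, 3.93 and 4.44 on RG. The BAT and CL arrays all lay above WAT, RG overlapped WAT, and the RS arrays fell on either side of WAT. The BAT mean of H2bc15 exceeded that of WAT by 1.68 on the log2 scale, or 3.19-fold (SE 0.434, adjusted p = 0.00667), and passed under all 22 alternatives. It was 2.69-fold higher in CL (1.43, SE 0.434, adjusted p = 0.0273). That call was lost without CL 1, CL 3 or WAT 1, and with a block for replicate number (adjusted p = 0.0814). Over the alternatives, the adjusted p lay between 0.00293 and 0.102. The difference was 0.21 in RG (adjusted p = 0.782) and 0.16 in RS (adjusted p = 0.825). H2bc15 was also lower in RG than in BAT, by 1.46 (fell by 1.46, adjusted p = 0.0474).

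H2bc7 had its highest values on the RG arrays. It read 2.39, 2.24, 2.58 and 2.81 on the WAT arrays, 3.74, 3.89 and 3.21 on RG, 3.32, 3.13 and 3.48 on BAT, 3.16, 3.43 and 2.71 on CL, and 1.77 and 2.49 on RS. The RG and BAT arrays lay above WAT, CL overlapped it, and RS lay within or below it. The increase over WAT was 1.11 in RG (SE 0.229, 2.16-fold, adjusted p = 0.00786), past the threshold under all 21 alternatives that tested it. In BAT it was 0.80 (adjusted p = 0.0111), and quantile normalization ended that call (0.54, adjusted p = 0.0973). In CL it was 0.59 (adjusted p = 0.0672) and in RS -0.38 (adjusted p = 0.298). The mean of H2bc7 lies at the 39.1th percentile of probe sets.

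H2bc4, an H2B gene whose annotated span exceeds 1000 bases, read 8.08, 7.65, 8.01 and 7.41 on the WAT arrays and 8.86, 8.66 and 8.72 on the RG arrays. It read 8.31, 8.48 and 9.09 on CL, 8.69, 8.81 and 7.43 on BAT, and 7.48 and 8.36 on RS. RG and CL lay above WAT, while BAT 4 and RS 3 lay within its range. No difference passed the threshold: 0.96 in RG (adjusted p = 0.0581), 0.84 in CL (adjusted p = 0.0599), 0.52 in BAT (adjusted p = 0.183) and 0.13 in RS (adjusted p = 0.804). H2bc13 averaged 6.51 ± 0.25 (SD, n = 4) in WAT and 6.53 ± 0.34 (SD, n = 3) in BAT, and its differences in CL, RS and RG were 0.14, -0.16 and 0.48, with adjusted p-values of 0.599, 0.615 and 0.107.

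The other H2B calls were of dim probe sets. H2bc22 was higher by 0.91 in BAT (adjusted p = 0.00167), 0.72 in CL (adjusted p = 0.0130) and 0.88 in RS (adjusted p = 0.0111), from 1.31 ± 0.13 (SD, n = 4) in WAT. Quantile normalization left 0.39, 0.33 and 0.50, with adjusted p-values of 0.144, 0.282 and 0.149. H2bc1, a testis type of H2B, was higher in RS by 1.03 (adjusted p = 0.0214), and by 0.66 after quantile normalization (adjusted p = 0.155). H2bc3 had a lower mean than WAT in all 4 other groups, with differences of -0.60 to -0.04, and no call.

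Of 9 linker histone genes, 5 were higher in CL, 4 in BAT, 0 in RS and 1 in RG, where 15.2%, 27.6%, 11.1% and 5.19% of all probe sets were, with no test of the class itself. H1f4, an S-phase H1 gene of the larger cluster, read 4.00, 3.77, 4.61 and 3.11 on the WAT arrays. It read 5.04, 4.99 and 5.26 on CL, 5.22, 4.42 and 4.33 on BAT, 4.46 and 4.76 on RS, and 4.8, 4.59 and 5.02 on RG. The CL arrays all lay above WAT, and each other group held at least 1 array under the highest WAT array, WAT 3. The CL mean of H1f4 exceeded that of WAT by 1.22, or 2.34-fold (SE 0.287, adjusted p = 0.00777), and passed under all 22 alternatives. It was higher by 0.78 in BAT (adjusted p = 0.0373, 15 of 22 alternatives) and by 0.93 in RG (adjusted p = 0.0477, 9 of 22). In RS the difference was 0.74 (adjusted p = 0.110). H1f2, another S-phase H1 gene, read 3.60 to 3.90 in WAT and 4.21 to 4.98 in CL, without overlap. Its difference of 0.81 in CL had adjusted p = 0.0487 and held under 5 of 22 alternatives.

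H1f0 is the replacement linker histone of non-dividing and differentiated cells, and its gene stands alone outside the clusters. It read 7.78, 7.82, 7.73 and 7.15 on the WAT arrays, 8.18, 8.03 and 8.53 on BAT, and 8.16, 8.49 and 8.34 on CL. On the RG arrays it read 7.92, 8.11 and 8.37, and on RS 7.54 and 7.38. The BAT, CL and RG arrays lay above WAT, and the RS arrays lay within its range. H1f0 was 1.54-fold higher in BAT (0.63, SE 0.190, adjusted p = 0.0157) and 1.64-fold higher in CL (0.71, SE 0.190, adjusted p = 0.0148), each past the threshold under 20 of 22 alternatives. The difference was 0.51 in RG (adjusted p = 0.0918) and -0.16 in RS (adjusted p = 0.607). The BAT call was lost without BAT 4 and with a block for replicate number (adjusted p = 0.0613). RS was lower than CL by 0.87 (fell by 0.87, SE 0.227, adjusted p = 0.0743), without overlap but not past the threshold. H1f10, the other replacement linker histone gene, read 3.72 to 4.8 in WAT, 4.86 and 5.16 in RS, and 4.79 to 5.01 in RG. Its difference was 0.76 in RS (adjusted p = 0.0600) and 0.66 in RG (adjusted p = 0.0905), and after quantile normalization it was 1.03 in RS (adjusted p = 0.0298).

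Dim linker genes were also called, among them germ-line types. H1f6, the testis H1, rose from 1.62 ± 0.17 (SD, n = 4) in WAT to 2.59 ± 0.23 (SD, n = 3) in BAT, a difference of 0.96 (adjusted p = 0.000257) that stayed past the threshold under all 21 alternatives that tested it, at 0.49 after quantile normalization (adjusted p = 0.0195). In CL it was higher by 0.68 (adjusted p = 0.00535), and by 0.32 after quantile normalization (adjusted p = 0.149). H1f1 was higher in BAT by 1.11 (adjusted p = 0.00232), and by 0.64 after quantile normalization (adjusted p = 0.0619). H1f8, the oocyte H1, was higher in CL by 0.83 (adjusted p = 0.0162), and by 0.65 after quantile normalization (adjusted p = 0.0848). H1f7, a spermatid H1, read 2.02 to 2.46 in WAT and 1.98 to 2.65 over all other arrays, with no call.

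**Figure D3:**
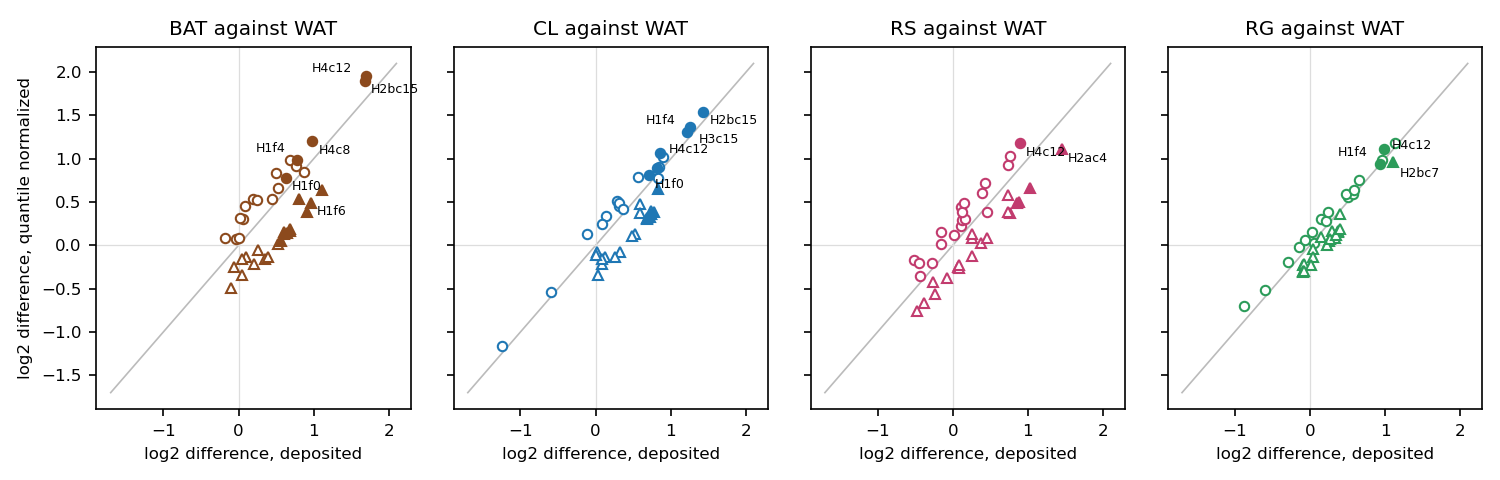
Log2 difference of each of the 39 histone genes from WAT in the deposited values (x axis) against the same difference after quantile normalization (y axis), 1 panel per group. Circles are the 19 genes above the median level, triangles the 20 others, filled symbols are called in the deposited values, names mark genes called in both, and the grey line is equality. In BAT, CL and RS most triangles lie below the line and most circles on or above it.

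Forcing all arrays to 1 distribution kept most calls of bright members in BAT and CL and lost most calls of dim ones there. Quantile normalization moved the median difference of all probe sets from 0.18 to 0.03 in BAT, from 0.13 to 0.02 in CL, from 0.13 to 0.04 in RS and from 0.10 to 0.03 in RG. It took the split of all calls in BAT from 6950 higher and 4146 lower to 3306 and 2914. The share of all probe sets called higher went from 15.2% to 6.36% in CL, from 11.1% to 4.57% in RS and from 5.19% to 3.84% in RG. How many bright and dim probe sets in general kept their calls was not counted. The split between bright and dim members may therefore not be particular to them. Of the 13 members called higher in BAT, 6 were called in both (H1f0, H1f4, H1f6, H2bc15, H4c8 and H4c12). These included all 5 of the bright members and 1 of the 8 dim ones. In CL, 5 of 12 were called in both (H1f0, H1f4, H2bc15, H3c15 and H4c12), which is 5 of the 6 bright members and 0 of the 6 dim ones. In RS, 2 of 5 were called in both, the bright H4c12 and 1 of the 4 dim members, H2ac4. In RG, 3 of 3 were, the bright H1f4 and H4c12 and the dim H2bc7. Another 3 members were called in BAT only after quantile normalization (H2ac10, H2ac22 and H3c14), 2 in CL (H2ac22 and H3c14) and 1 in RS (H1f10).

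The drugs were compared in the UCP1-positive inguinal cells, where tissue and gate were shared, at doses and times the labels do not give. Between RS and CL, 0 of 39 members were called in either direction by limma or limma-trend, against 0.476% of all probe sets higher and 0.797% lower. At an unadjusted p under 0.05, 1 was higher and 6 lower in RS by both fits. No share of all probe sets was counted at that threshold, here or in the comparisons below. The differences ran from -1.54 to 0.80. The largest was H3c15, whose RS arrays lay below all CL arrays (fell by 1.54, SE 0.456, adjusted p = 0.103). Without RS 4, with RS 3 the only RS array and the spread taken from the other groups, H2bc15 (fell by 2.50, adjusted p = 0.0113) and H2bc7 (fell by 1.33, adjusted p = 0.0464) were called lower in RS than in CL. Without WAT 4, H1f0 was (fell by 0.87, adjusted p = 0.0426).

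Between RS and RG, 1 of 39 was lower in RS and 0 were higher, against 0.337% and 0.345% of all probe sets. That member was H2bc7, whose 2 RS arrays lay below its 3 RG arrays, a 2.80-fold difference (fell by 1.48, SE 0.273, adjusted p = 0.0304). It held under 13 of 21 alternatives. Without RS 3 it was not called and H3c8 was called higher in RS instead (1.34, adjusted p = 0.0244). Without WAT 2, RG 2, RG 3 or RG 4, 0 members were called. Of all probe sets, 0.0674%, 0.0317%, 0.00793% and 0.0317% were lower in RS in those fits. Unadjusted, 5 members were higher and 6 lower. Between CL and RG, 1 of 39 was higher in CL (H3c8), against 1.65% of all probe sets, and 0 were lower, against 1.22%. At an unadjusted p under 0.05, 6 were higher and 0 lower by limma and by limma-trend.

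Against the brown adipocytes, the treated inguinal cells had no member called higher and a few lower. In CL, 1 of 39 was lower (H4c12), against 1.42% of all probe sets. In RS, 3 were lower (H4c12, H2bc7 and H1f6), against 2.34%, and in RG 5 were (H1f6, H2ac11, H2bc15, H3c8 and H4c12), against 8.42%. Counts of 0 higher stood against 0.635%, 1.33% and 5.85% of all probe sets, with 1, 3 and 2 members higher at an unadjusted p under 0.05 in limma and in limma-trend. H2bc7 was lower in RS than in BAT by 1.18 (fell by 1.18, adjusted p = 0.0298), and H1f6 by 0.71 (fell by 0.71, adjusted p = 0.0408). In RG, H1f6 was lower by 0.58 (fell by 0.58, adjusted p = 0.0270), H2ac11 by 0.77 (fell by 0.77, adjusted p = 0.0221) and H3c8 by 0.65 (fell by 0.65, adjusted p = 0.0456). Leaving out 1 array gave counts of 0 to 1 in CL, 0 to 4 in RS and 1 to 6 in RG. The RG count was 1 without RG 2 or RG 4 and 2 without RG 3, BAT 1 or BAT 3. In those fits, in the same order, 3.75%, 4.66%, 3.74%, 5.57% and 7.2% of all probe sets were lower in RG. These comparisons share arrays with those against WAT, so they are not separate evidence.

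Most genes that make histone mRNA were not called. Of 20 measured, 1 was higher and 8 lower in BAT, 1 and 3 in CL, 0 and 3 in RS, and 0 and 3 in RG. Their median differences were -0.35, -0.26, -0.33 and -0.26. Most of the 20 (18) lie above the median level, where 30.5% of probe sets were lower in BAT, 18.0% in CL, 19.0% in RS and 11.0% in RG. Slbp, which binds the stem-loop, was not called in any of the 4 (-0.23, -0.17, -0.36 and -0.28, adjusted p between 0.284 and 0.588). Eri1, an exonuclease that trims the stem-loop end, was lower in all 4, with differences of -0.90 to -0.67. Npat, the coactivator of histone genes in S phase, fell by 1.10 in RS (adjusted p = 0.00496) and by 0.62 in BAT (adjusted p = 0.0212). Zfp473, a zinc finger protein of the histone pre-mRNA processing complex, was the gene that rose in BAT (1.55, 2.93-fold, adjusted p = 1.12e-05).

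Replacement histones outside the symbol rule were measured as well. Of 12 such variants, 8 of them above the median level, 1 was higher and 5 lower in BAT, 1 and 3 in CL, 0 and 5 in RS, and 0 and 4 in RG. These counts stand beside the same shares of bright probe sets called lower. H2ax, the variant phosphorylated at DNA breaks, fell by 1.03 in BAT (adjusted p = 0.00510), by 0.91 in CL (adjusted p = 0.0187), by 1.37 in RS (adjusted p = 0.00567) and by 0.98 in RG (adjusted p = 0.0232). H2az1 fell by 0.89 in BAT, 0.94 in RS and 0.80 in RG. H3f3b, a gene of H3.3, fell by 0.69 in BAT and 0.70 in CL. Cenpa, the centromeric H3, fell by 1.20 in RS (adjusted p = 0.000672).

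**Figure D4:**
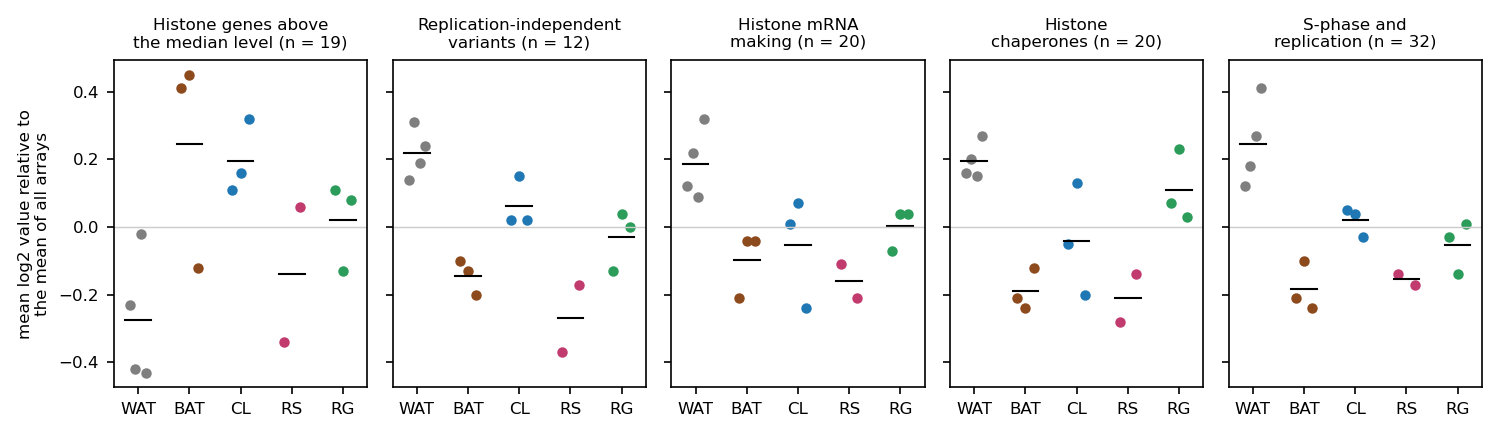
Mean log2 value of each gene list on each array relative to the mean of all arrays (points), by group, with the group mean as a line: the 19 histone genes above the median level, 12 replication-independent variants, 20 genes of histone mRNA making, 20 histone chaperones and 32 S-phase and replication genes. The bright histone genes have their lowest group mean in WAT, whose arrays lie between -0.43 and -0.02, whereas each other list has its highest group mean in WAT.

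Of 32 S-phase and DNA replication genes, 25 of them above the median level, 1 was higher and 11 lower in BAT, 0 and 5 in CL, 0 and 10 in RS, and 0 and 7 in RG, with medians of -0.36, -0.23, -0.27 and -0.22. Pcna, the sliding clamp of DNA polymerases, fell by 0.76 in BAT, 0.88 in CL, 1.25 in RS and 0.94 in RG. Mcm4, a subunit of the replicative helicase, fell by 1.15 in BAT (adjusted p = 0.000463). E2f2 was the one that rose in BAT (1.06, adjusted p = 0.00424). Of 20 mitosis genes, 3 were higher and 2 lower in BAT, 1 and 0 in CL, 0 and 1 in RS, and 1 and 0 in RG. Their median differences were 0.04, 0.01, 0.0 and -0.13. Only 5 of the 20 lie above the median level. At or under that level, 42.6% of all probe sets were higher in BAT, 22.0% in CL, 17.7% in RS and 4.19% in RG. Bub1, a spindle checkpoint kinase, rose by 0.51 in BAT (adjusted p = 0.00837) and 0.58 in CL (adjusted p = 0.00874), and its differences after quantile normalization were -0.02 and 0.18 (adjusted p = 0.927 and 0.452). Mki67, a proliferation marker, fell by 1.04 in BAT (adjusted p = 0.00521) and by 1.25 in RS (adjusted p = 0.00986). Of 20 histone chaperones, 1 was higher and 10 lower in BAT, 0 and 5 in CL, 0 and 3 in RS, and 1 and 0 in RG. Of these 20, 19 lie above the median level. In RG, Npm3 was the one higher (0.56, adjusted p = 0.0125). Of the probe sets above the median level, 30.5% were lower in BAT, 18.0% in CL, 19.0% in RS and 11.0% in RG, and the S-phase count in CL did not exceed that share. Macrophage and stromal markers fell in the same comparisons, with the values given above, and their part in the differences of these lists was not tested. In whole sorted samples, fewer cells of a type and less RNA per cell cannot be told apart.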

How the data were processed

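Each of 15 arrays (4 WAT, 3 BAT, 3 CL, 2 RS, 3 RG) was hybridised with labelled cDNA made from 2 ng of total RNA, per the labels' protocols. The authors deposited a log2 value for each probe set and array. RMA, Affymetrix Expression Console and affy 1.36.1 are named in the submitters' processing notes, with order, settings, probe-set definition and genome build not given in the sources used here. Probe sets carry Entrez numbers, through which RefSeq (GRCm38.p6) named 23740 of 25206. Groups were compared on the deposited log2 values with limma 3.58.1 (R 4.3.3; lmFit, contrasts.fit, eBayes), with all 15 arrays in 1 model with 10 residual degrees of freedom, two-sided, adjusted over all probe sets, threshold 0.05. No value was filtered out. Scripts were tested on simulated data. Fold changes are 2 to the power of the log2 difference, and the small number of arrays limits the precision. RS holds 2 arrays, assumed to vary as the other groups do.

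Named members are those with the largest differences past the threshold whose arrays do not overlap, the 2 with the highest level in each class and those outside the clusters. H4c9, H2ac20, H2bc1, H2bc3, H1f1 and the members with overlapping arrays were named after their values were seen. The members and lists were chosen with earlier results of these data known. Alternatives were quantile normalization, median centring, only probe sets above the median level, limma-trend with a robust prior, a replicate block, only the 2 groups compared, and leaving out each array.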

Additional observations from a re-analysis of the deposited data

Results flagged for a closer look

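Among the 4 WAT arrays, 3 of the 39 members had an array that stood apart by Dixon's test (the gap to the nearest array divided by the range, given in parentheses). H1f0 read 7.15 on WAT 4, against 7.73 to 7.82 on the others (0.866). H2bc3 read 4.5 on WAT 4, against 3.75 to 3.83 (0.893). H4c9 read 3.31 on WAT 2, against 3.90 to 4.02 (0.831). Chance flags about 1 in 20 such groups, and the other groups were too small to test.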

How the results depend on the processing

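Of 601 recomputed values of 28 named differences under up to 22 alternatives, 477 kept the call, 124 lost it and 0 reversed in direction. Of the 28 differences, 7 were called under all. The 28 were chosen for arrays that do not overlap between the groups, so leaving out an array could not reverse a direction. Several other settings leave the difference itself unchanged. The 0 reversed is therefore no measure of stability. Counts of members called, against WAT: in BAT 13, but 5 with only probe sets above the median level tested and 8 with the replicate block; in CL 12, but 7 after quantile normalization, 5 with only those probe sets and 3 with the block; in RS 5, but 3, 1 and 2; in RG 3, but 5 with only the 2 groups fitted. RS against RG gave 1, but 0 with only brighter probe sets, the block or 2 groups. CL against RG gave 1, but 0 after quantile normalization, with brighter probe sets or the block, and 2 with 2 groups or without WAT 4 and RS 3 together. CL against BAT gave 1, but 0 with the block or 2 groups. RS against BAT gave 3, but 1 with brighter probe sets and 0 with the block, 2 groups or without WAT 4 and RS 3. RG against BAT gave 5, but 1 after quantile normalization, 3 with median centring, 1 with brighter probe sets and 0 with the block. Leaving out 1 array gave 10 to 16 (BAT), 6 to 15 (CL), 1 to 8 (RS) and 2 to 6 (RG) against WAT, 0 to 2 for RS against CL and CL against RG, 0 to 1 for RS against RG and CL against BAT, 0 to 4 for RS against BAT and 1 to 6 for RG against BAT. The brighter-only setting tests fewer members. The cause of the other changes was not tested. Against WAT, 27.6% of all probe sets were higher in BAT in the main fit, 13.1% after quantile normalization and 17.1% with the block. These shares were 15.2%, 6.36% and 4.9% in CL, 11.1%, 4.57% and 2.93% in RS, and 5.19%, 3.84% and 1.15% in RG. With the block, 0 of all probe sets were higher or lower in RS against RG. The labels do not say what the replicate numbers stand for. All 24 same-numbered pairs had negative correlations of their deviations, -0.88 to -0.05, and 0 arrays correlated best with their own number. Numbers unrelated to the values would give correlations on both sides of 0. Whether the block belongs in the fit was therefore not settled. With it fewer members, and fewer of all probe sets, were called in each comparison with WAT.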

Other observations

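Some histone genes outside the symbol rule were also measured. H2bu2, an H2B gene, is already counted among the 12 variants above. It fell by 0.99 in RS (limma adjusted p = 0.0164) and by 0.92 in RG (adjusted p = 0.0188) against WAT. H2aw, H4f16 and Hils1 had no call in any of the 4 comparisons with WAT.

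On some arrays, many of the bright histone genes leaned the same way within their group, a pattern noticed after the values were seen. BAT 4 was the lowest of its 3 arrays for 16 of the 19 members above the median level, against 41.0% of the probe sets at that level. RS 3 was the lower of its 2 arrays for 15 of 19, against 49.2%. RG 3 was the lowest of 3 for 11 of 19, against 38.5%, and CL 4 the highest of 3 for 10 of 19, against 35.6%. Other arrays showed less of this. CL 1 was the lowest for 5 of 19 and the highest for 5, against 31.1% and 26.1%. WAT 4 was the lowest of 4 for 8, against 31.2%, and WAT 3 the highest for 9, against 25.3%. Members share their array, so they are not independent.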
